A study of Mus musculus with 6 samples.

Results

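The 10 genes described here mark the endothelium that lines the capillaries and larger vessels of the mouse lung, and they were chosen by name from 25860 genes in the count table: Car4, Ednrb, Apln, Aplnr, Gpihbp1, Plvap, Kdr, Cldn5, Vwf and Cdh5. RNA was sequenced from normal-looking lung of 6 mice, all untreated, 12 months old and on a C57BL/6 background. Replicates 1 to 3 were RAG1-/- and replicates 4 to 6 were RAG1-/-Sgo1-/+. By their labels, all 6 mice lacked both copies of RAG1, which B and T lymphocytes need to assemble their antigen receptors, and the second group also lacked 1 copy of Sgo1, which protects the cohesion of sister chromatids in cell division and whose partial loss is used as a model of chromosome instability. The comparison asks whether chromosome instability, on the background without adaptive immunity, altered the lung transcriptome. Each library came from a piece of whole lung, so that fewer endothelial cells and less RNA per endothelial cell cannot be told apart.

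Lung alveoli are wrapped in a dense capillary net with a pair of endothelial cell states. Aerocytes are large, thin cells at the gas exchange surface that are known for Car4, Ednrb and Apln, whereas general capillary cells are known for Aplnr, Gpihbp1 and Plvap and can renew the net. Apelin, the product of Apln, is the ligand of the receptor encoded by Aplnr, so ligand and receptor are held by neighbouring capillary cells. Kdr (VEGF receptor 2), Cdh5 (VE-cadherin of adherens junctions) and Cldn5 (the claudin of endothelial tight junctions) are used by nearly all blood endothelium, and Vwf, the clotting protein stored in endothelial granules, is strongest in larger vessels.

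The promoters of a few of these genes show what kind of sequence lies upstream of them. RefSeq windows of the 250 bases before the gene start (GRCm38.p6) were found for 5 of the 10 genes. Car4 (chr11:84957504-84957753, plus strand) and Ednrb (chr14:103843702-103843951, minus strand) are shown because these aerocyte genes went opposite ways in 1 library, and Cldn5 (chr16:18776597-18776846, plus strand) because its reads stayed closest to those of Cdh5. Each is written 5′ to 3′ on the strand of its gene, and capitals mark GGAA or its reverse complement TTCC, the core that ETS factors, a family much used in endothelium, are known to bind.
Car4: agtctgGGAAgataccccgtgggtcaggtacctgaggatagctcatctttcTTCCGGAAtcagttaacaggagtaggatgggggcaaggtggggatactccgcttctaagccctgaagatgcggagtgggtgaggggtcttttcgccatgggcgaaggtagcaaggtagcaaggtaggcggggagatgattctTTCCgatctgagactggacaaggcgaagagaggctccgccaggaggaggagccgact
Ednrb: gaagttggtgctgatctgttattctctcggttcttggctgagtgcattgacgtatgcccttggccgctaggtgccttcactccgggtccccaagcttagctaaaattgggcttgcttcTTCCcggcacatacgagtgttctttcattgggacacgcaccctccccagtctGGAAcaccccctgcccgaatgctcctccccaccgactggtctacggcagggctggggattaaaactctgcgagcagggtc
Cldn5: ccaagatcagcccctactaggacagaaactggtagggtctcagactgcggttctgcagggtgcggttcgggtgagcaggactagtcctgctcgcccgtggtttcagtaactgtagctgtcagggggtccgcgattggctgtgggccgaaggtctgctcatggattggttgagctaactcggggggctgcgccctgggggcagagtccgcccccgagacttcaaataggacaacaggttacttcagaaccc
The Car4 window held 4 matches to this core, 2 of them side by side, and the Ednrb window held 2. The Cldn5 window held none. Of 32851 promoter windows of the same length, 93.4% held at least 1 match, so that a match is common and describes the letters of the window only. The windows of Kdr and Apln held 4 and 3 matches. GC content was 56.4% for Car4, 56.8% for Ednrb and 59.6% for Cldn5, against a median of 52.4% over all windows.

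Reads counted on genes, used as the depth of a library, ran from 3205822 (replicate 6) to 9366774 (replicate 1). A count of 3 reads, taken as the smallest number that can be told from 0, was worth 0.320 to 0.936 CPM (counts per 1000000 counted reads of the library). These depths cover counting error only. The targeted genes gave too few reads to check the labels: Sgo1 had 2 to 6 reads in the RAG1-/- libraries and 0 to 6 in the RAG1-/-Sgo1-/+ libraries, and Rag1 had 8 to 24 reads in all 6. The library labelled RAG1-/- replicate 2 held 1853 reads of the antibody light chain gene Igkc, where the others held 0 to 8, and the 8 B and plasma cell markers summed to 918 CPM there and to 18.7 to 23.9 CPM elsewhere, which goes against the label of that library. Without it, the log2 fold changes of the 10 genes lay between -0.50 (Ednrb) and 0.36 (Aplnr). Replicate 1 was the only library with many reads of Xist, the RNA of the inactive X chromosome (7717, against 4 to 8). It held 2 reads of the Y chromosome gene Ddx3y, where the others held 342 to 1228. By these 2 genes replicate 1 came from a female and the others from males, so only the RAG1-/- group held both sexes. The 8 adipocyte markers summed to 779 CPM in replicate 1 against 78.2 to 149 CPM elsewhere. H2-K1, an antigen presentation gene, had 114 and 101 reads in replicates 4 and 6, against 1092 to 2377 in the other libraries. The RAG1-/-Sgo1-/+ group was thus split for this gene, and the cause was not tested. In replicate 6 the geometric mean of 42 other endothelial genes was 109 CPM, below the 139 to 145 CPM of the other 5 libraries. Values that move much without 1 of these libraries are given both ways.

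All 10 genes were read in every library, with 1158 (Apln) to 13355 (Cdh5) reads over the 6 libraries. Levels are compared between genes per kilobase of exon after scaling to CPM. Cldn5 was highest at 263 ± 29.1 (SD, n = 6 libraries), followed by Cdh5 (90.0 ± 11.2), Plvap (77.0 ± 12.0), Car4 (75.3 ± 14.7), Gpihbp1 (31.5 ± 5.67), Ednrb (18.4 ± 4.49), Kdr (17.1 ± 1.84), Apln (10.6 ± 1.64), Aplnr (9.46 ± 2.22) and Vwf (7.11 ± 0.774). Between neighbours in this order, the libraries' ranges were apart only for Cldn5 over Cdh5, Car4 over Gpihbp1 and Kdr over Apln. Gpihbp1 overlapped Ednrb in range but was above it within each of the 6 libraries. The other neighbours overlapped and were in this order in 2 to 5 of the 6 libraries. Dividing by the longest transcript in place of all exons raised Car4 to 118 and Vwf to 12.9, so Car4 then stood second and Vwf eighth. The tissue label was checked against the lung's own genes, and the 10 alveolar type 2 markers summed to 32804 to 44239 CPM per library.

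None of the 10 genes passed the call between the groups, an adjusted p below 0.05 with at least a 2-fold difference in edgeR's quasi-likelihood test with Benjamini-Hochberg adjustment over 17231 tested genes. The background share of genes called was 0%, and DESeq2's Wald test likewise called 0 of the 10. At an unadjusted p below 0.05, edgeR gave 0 of the 10 genes, beside 976 of 17231 genes, or 5.66%. With a 2-fold difference required as well, it gave 0 of the 10 and 1.35% of all genes. The log2 fold changes of RAG1-/-Sgo1-/+ over RAG1-/- lay between -0.41 (Ednrb) and 0.21 (Aplnr and Vwf), with a median of -0.13, and the median over all tested genes was 0.03. Of the 10 genes, 6 had lower and 4 had higher fitted values in RAG1-/-Sgo1-/+. The 95% intervals of all 10 stayed inside a 2-fold difference either way, from 0.549-fold at the lowest bound (Ednrb) to 1.67-fold at the highest (Aplnr). Differences within these intervals could not be told from none. The plot of CPM by library shows the values and the plot of fold changes shows the intervals.

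**Figure D1:**
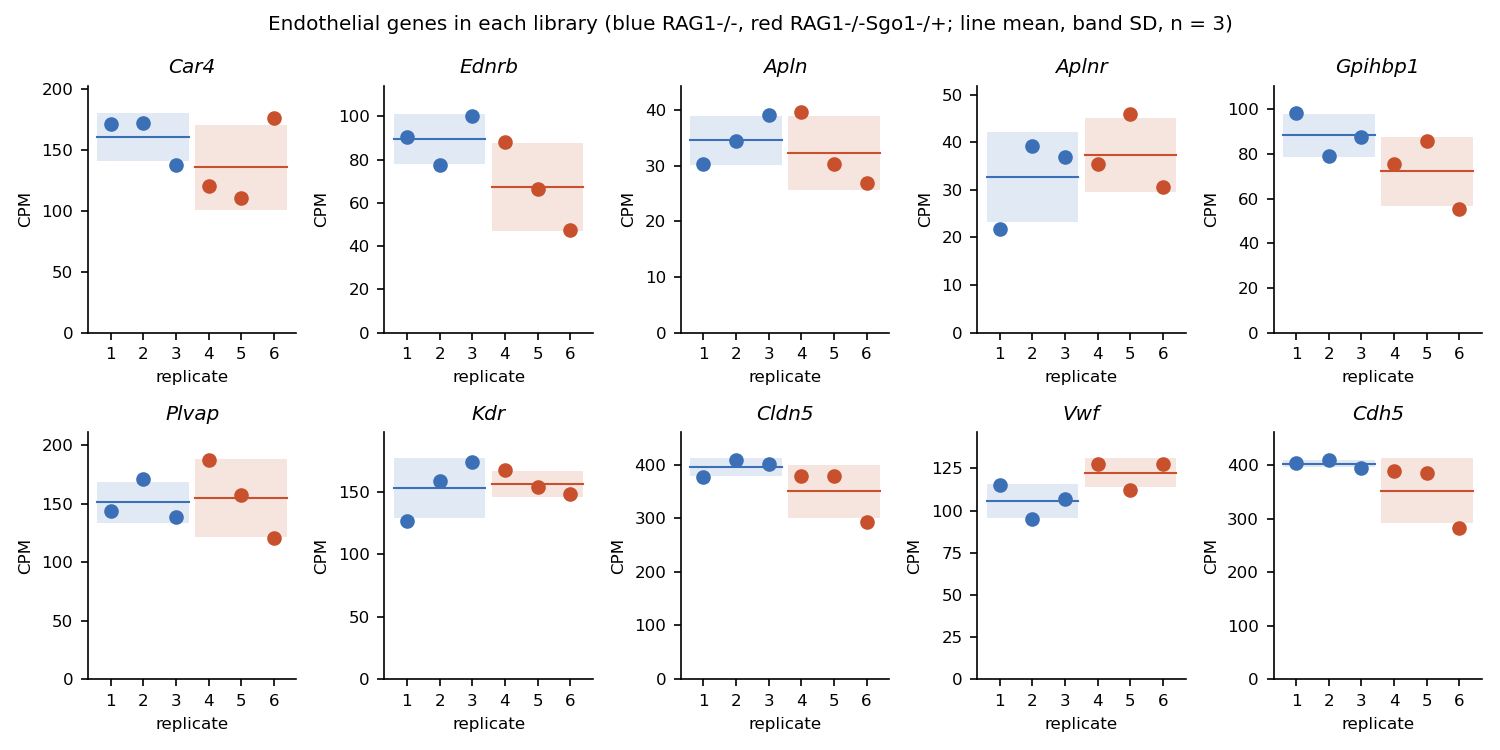
CPM (y axis from 0) of the 10 endothelial genes in each of the 6 libraries (x axis, replicate number). Points are libraries, lines are group means and bands are 1 SD (n = 3); the groups overlap in 9 of the 10 genes, and replicate 6 is the lowest library in 6 of them but the highest for Car4 and Vwf.

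**Figure D2:**
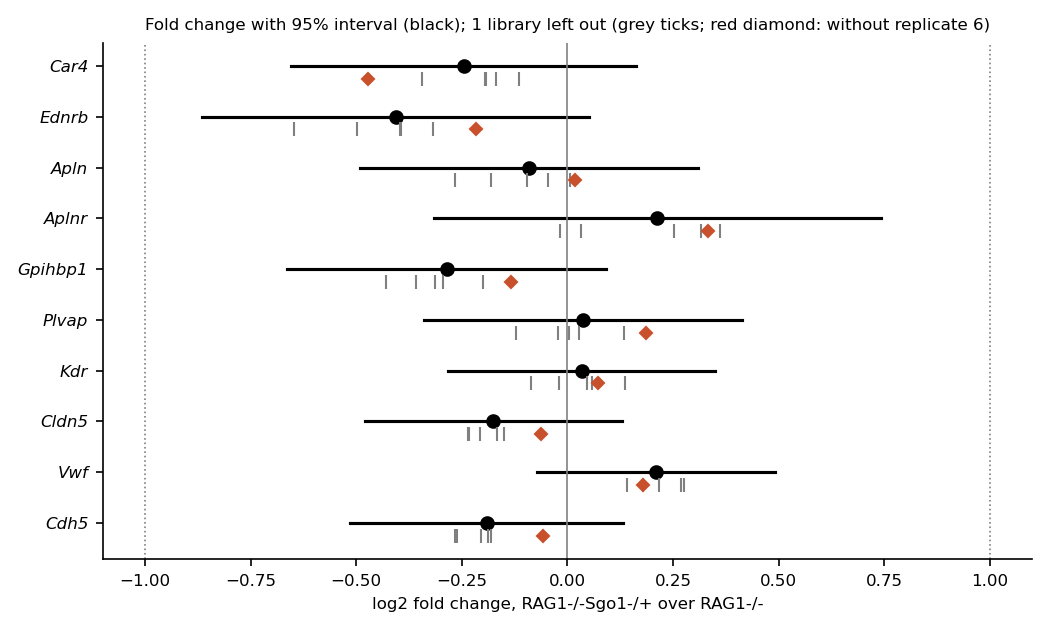
Log2 fold change of RAG1-/-Sgo1-/+ over RAG1-/- (x axis) for each gene, with its 95% interval from edgeR in black; grey ticks are the values with 1 library left out and the red diamond is the value without replicate 6. All intervals stay within the dotted lines at 2-fold, and leaving out replicate 6 moves Car4 down to -0.47 but Ednrb up to -0.22.

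The aerocyte genes were examined first. Car4 encodes carbonic anhydrase 4, an enzyme held on the cell surface that speeds the exchange of carbon dioxide and bicarbonate. Its level was 172, 172 and 138 CPM in the RAG1-/- replicates 1 to 3, and 121, 110 and 176 CPM in the RAG1-/-Sgo1-/+ replicates 4 to 6. Replicates 4 and 5 lay below all RAG1-/- libraries while replicate 6 lay above all of them, so the groups overlapped. The log2 fold change was -0.25 ± 0.18 (SE; edgeR, adjusted p = 0.859). Without replicate 6 it was -0.47, at an unadjusted p below 0.05 but an adjusted p not below 0.824 in any alternative.

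Ednrb, the endothelin receptor B, clears endothelin from the blood and relays its signal. It measured 90.6, 77.6 and 100 CPM in RAG1-/- and 88.1, 66.3 and 47.4 CPM in RAG1-/-Sgo1-/+. Replicates 5 and 6 were below every RAG1-/- library, and replicate 4 was within them. The log2 fold change of -0.41 ± 0.21 (SE) was the largest in size among the 10 genes and did not pass the test (edgeR, adjusted p = 0.832). It was -0.65 without replicate 4, at an unadjusted p below 0.05, and -0.22 without replicate 6, and the adjusted p was 0.570 or above in all alternatives. Of the 6 other genes of the endothelin system, 0 had an unadjusted p below 0.05. The ligand gene Edn1 was at 20.9 to 28.7 CPM in RAG1-/- and 21.5 to 43.2 CPM in RAG1-/-Sgo1-/+, and the log2 fold change of Ednra, the receptor that constricts vessels through smooth muscle, was -0.02 ± 0.20 (SE).

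Apln, the apelin ligand, was at 30.3, 34.3 and 39.0 CPM in RAG1-/- and at 39.6, 30.4 and 26.8 CPM in RAG1-/-Sgo1-/+. The groups covered nearly the same range, with a log2 fold change of -0.09 ± 0.18 (SE; edgeR, adjusted p = 0.955). Among the 14 further aerocyte markers, all were tested and 1 was lower at an unadjusted p below 0.05, beside 2.52% of all genes. That was Chst1, a sulfotransferase, with 31.2, 29.1 and 27.5 CPM in RAG1-/- and 23.0, 22.2 and 16.2 CPM in RAG1-/-Sgo1-/+. Its groups did not overlap, as for 5.54% of all genes in this direction. Its log2 fold change of -0.50 ± 0.18 (SE) had an adjusted p of 0.832 by edgeR. The 14 genes had a median log2 fold change of -0.06 and summed to 3127 to 3699 CPM in RAG1-/- and 2968 to 4135 CPM in RAG1-/-Sgo1-/+. The 2 highest, Emp2 at 1117 to 1883 CPM and Cyp4b1 at 324 to 638 CPM, weighed most in this sum. Which cells of the whole lung gave their reads was not tested.

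The general capillary genes came next. Aplnr, the apelin receptor, was at 21.8, 39.2 and 36.9 CPM in RAG1-/- and at 35.6, 45.9 and 30.6 CPM in RAG1-/-Sgo1-/+. Replicate 1 was the lowest of the 6 libraries. The log2 fold change was 0.21 ± 0.24 (SE; edgeR, adjusted p = 0.899). It was -0.02 without replicate 1 and 0.03 without replicate 5, the highest library. The second apelin receptor ligand, Apela, had 0 reads in all libraries, which allows up to 0.320 to 0.936 CPM.

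Gpihbp1 carries lipoprotein lipase across the capillary wall and anchors it there. It measured 98.3, 79.2 and 87.6 CPM in RAG1-/- and 75.4, 85.9 and 55.5 CPM in RAG1-/-Sgo1-/+. Replicate 6 was the lowest and replicate 5 lay among the RAG1-/- libraries. Its log2 fold change was -0.29 ± 0.17 (SE; edgeR, adjusted p = 0.840), and it was -0.43 without replicate 5, at an unadjusted p below 0.05, and -0.13 without replicate 6. The adjusted p was 0.676 or above in all alternatives. Of 11 genes of lipoprotein lipase handling, 10 were tested and 0 had an unadjusted p below 0.05. Lpl, the lipase itself, was at 381 CPM in replicate 1 and 167 to 273 CPM in the other libraries, and the fatty acid carrier Fabp4 was at 240 CPM in replicate 1 and 17.4 to 75.2 CPM in the others. Replicate 1 was also the library with the high adipocyte sum, whose part in these values was not tested, and the value for Gpihbp1 without replicate 1 was -0.20.

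Plvap forms the diaphragms of endothelial vesicles. It was at 144, 171 and 138 CPM in RAG1-/- and at 187, 157 and 120 CPM in RAG1-/-Sgo1-/+, so the second group held both the highest and the lowest library. Its log2 fold change was 0.04 ± 0.17 (SE; edgeR, adjusted p = 0.981). Of the 14 further general capillary markers, 1 was lower at an unadjusted p below 0.05, beside 2.52% of all genes. Sema3c, a secreted guidance factor, had 558, 571 and 632 CPM in RAG1-/- and 443, 432 and 380 CPM in RAG1-/-Sgo1-/+. Its groups were apart, as were those of 5.54% of all genes in this direction. The log2 fold change was -0.49 ± 0.12 (SE; edgeR, adjusted p = 0.832). The median of the 14 was -0.15, and 9 of them were lowest in replicate 6; without that library the median was 0.01.

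Kdr, the main signalling receptor for VEGF, was at 127, 158 and 174 CPM in RAG1-/- and at 168, 154 and 148 CPM in RAG1-/-Sgo1-/+. The RAG1-/-Sgo1-/+ libraries all lay between the RAG1-/- ones. The log2 fold change of 0.03 ± 0.14 (SE) had an adjusted p of 0.981 by edgeR, with an interval of 0.822-fold to 1.27-fold. Of 9 other VEGF ligands and receptors, 0 had an unadjusted p below 0.05. Vegfa, the ligand made mainly by alveolar epithelium, was at 775 to 996 CPM in RAG1-/- and 839 to 1167 CPM in RAG1-/-Sgo1-/+. The co-receptor Nrp1 was at 373 to 421 CPM and 262 to 398 CPM.

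The junction genes Cdh5 and Cldn5 were the most abundant by CPM. Cdh5 was at 405, 410 and 396 CPM in RAG1-/- and at 389, 386 and 284 CPM in RAG1-/-Sgo1-/+. It was the only gene of the 10 whose groups did not overlap, as was the case for 11.8% of all tested genes, 5.54% with the RAG1-/-Sgo1-/+ libraries lower and 6.24% with them higher. Replicates 4 and 5 were within 10 CPM of the lowest RAG1-/- library, and replicate 6 made up most of the gap. The log2 fold change was -0.19 ± 0.15 (SE; edgeR, adjusted p = 0.861), and -0.06 without replicate 6. Cldn5 was at 378, 409 and 400 CPM in RAG1-/- and at 379, 378 and 293 CPM in RAG1-/-Sgo1-/+, again with replicate 6 lowest, and its log2 fold change was -0.18 ± 0.14 (SE; edgeR, adjusted p = 0.869), and -0.06 without replicate 6. Of 16 junction partners, 0 had an unadjusted p below 0.05, and their median log2 fold change was 0.00. Tjp1, the scaffold of tight junctions, was at 350 to 386 CPM in RAG1-/- and 250 to 352 CPM in RAG1-/-Sgo1-/+.

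Vwf tethers platelets to injured vessel wall. It was at 115, 95.2 and 107 CPM in RAG1-/- and at 127, 112 and 128 CPM in RAG1-/-Sgo1-/+. Replicates 4 and 6 were above all RAG1-/- libraries and replicate 5 was below replicate 1. Between the groups the log2 fold change was 0.21 ± 0.13 (SE; edgeR, adjusted p = 0.840), between 0.11 and 0.34 in all 13 alternatives. Platelets and their precursors also carry this gene. The 14 platelet genes and Vwf partners summed to 126 to 154 CPM in RAG1-/- and 134 to 198 CPM in RAG1-/-Sgo1-/+, highest in replicate 6, and their part in the Vwf values was not tested. Of these 14, 1 was higher at an unadjusted p below 0.05, beside 3.15% of all genes. That was Gp5, a subunit of the platelet receptor for Vwf (log2 fold change 1.04 ± 0.42, SE; edgeR, adjusted p = 0.832). It was at 1.71 to 4.85 CPM in RAG1-/- and 6.30 to 8.48 CPM in RAG1-/-Sgo1-/+. Defining platelet genes were present at low levels in all libraries, Pf4 at 11.3 to 19.4 CPM and Ppbp at 19.8 to 35.6 CPM.

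Replicate 6 was then compared with the other 5 libraries, since it was lowest for 6 of the 10 genes, beside 24.6% of tested genes. On the log2 scale, replicate 6 lay below the mean of the others by -0.82 for Ednrb, -0.61 for Gpihbp1, -0.49 for Cdh5, -0.41 for Cldn5, -0.40 for Plvap and -0.36 for Apln. It lay at -0.19 for Aplnr and -0.07 for Kdr. It lay above them by 0.20 for Vwf and 0.33 for Car4, and was the highest library for these 2 genes, as it was for 25.5% of tested genes. The aerocyte genes Car4 and Ednrb, whose promoters are printed above, therefore parted in this library. Among the 42 other pan-endothelial genes, 28 were lowest in replicate 6. So were 10 of 14 pericyte genes, 8 of 12 genes of the alveolar type 1 epithelium and 1 of 10 lymphatic endothelial genes. Further lists gave 7 of 14 aerocyte, 9 of 14 general capillary, 9 of 16 junction, 5 of 14 arterial and 4 of 12 venous genes. The counts were 2 of 10 for alveolar type 2, 0 of 10 for airway and 1 of 8 for smooth muscle.

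Ratios of reads within a library do not depend on its depth or on the share of endothelial RNA that the 2 genes have in common, and 8 pairs were compared. The ratio of Cldn5 to Cdh5 was between 0.933 and 1.03 in all 6 libraries. Its spread on the log2 scale, 0.15 from the lowest to the highest library, ranked 17th in evenness among 6832 genes with at least 1000 reads, where the median spread was 0.69. Gpihbp1 ranked 441st (0.33), whereas Car4 (1.12) and Aplnr (1.14) were less even against Cdh5 than most genes. This ranking was chosen after the values were seen. Vwf to Cdh5 stood at 0.285, 0.232 and 0.270 for the RAG1-/- replicates, against 0.328, 0.291 and 0.450 for the RAG1-/-Sgo1-/+ replicates. This was the only one of the 8 pairs whose groups did not overlap, beside 17.1% of genes set against Cdh5, 18.8% of those set against Gpihbp1 and 5.71% of those set against Aplnr. The mean difference was 0.42 on the log2 scale (1.34-fold; exact two-sided permutation test, p = 0.1, adjusted over the pairs p = 0.533), and 3 against 3 libraries cannot give a p below 0.1. It was 0.24 without replicate 6. The ratio of Car4 to Cdh5 was 0.424, 0.420 and 0.348 in RAG1-/-, 0.310 and 0.286 in replicates 4 and 5, and 0.620 in replicate 6. The ratio of Ednrb to Aplnr differed by -0.67 on the log2 scale, with overlapping groups (exact two-sided permutation test, p = 0.2, adjusted over the pairs p = 0.533). That difference was -0.39 without replicate 1 and -0.93 without replicate 2.

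**Figure D3:**
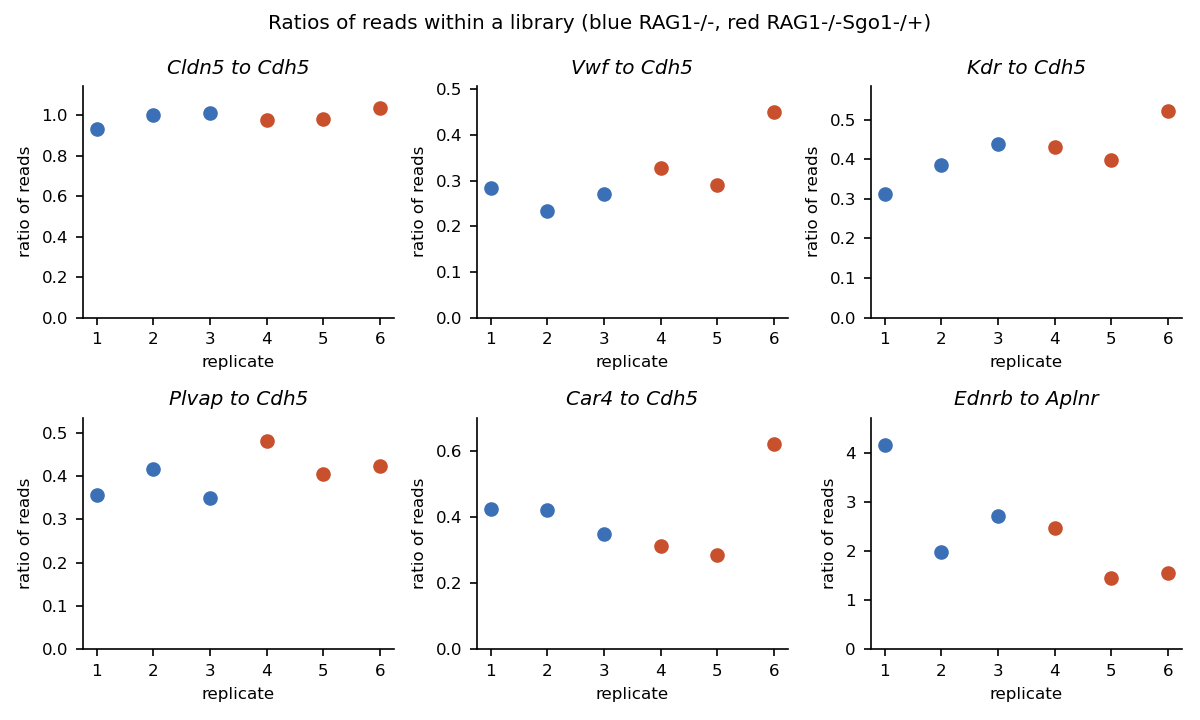
Ratio of the reads of 2 genes within each library (y axis from 0, no unit) against replicate number; points are libraries. Cldn5 to Cdh5 is level at 0.933 to 1.03, Vwf to Cdh5 is higher in all 3 RAG1-/-Sgo1-/+ libraries, and Car4 to Cdh5 is highest in replicate 6 at 0.620.

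The wider endothelial lists gave the setting of these values. Of 42 other pan-endothelial genes, 0 were called, 32 had fitted values below 0, and the median log2 fold change was -0.11, or -0.01 without replicate 6. At an unadjusted p below 0.05, 6 were lower, beside 2.52% of all genes, and 1 was higher, beside 3.15%. The lower ones included Ets1, an ETS factor, with 142, 189 and 173 CPM in RAG1-/- and 130, 134 and 109 CPM in RAG1-/-Sgo1-/+ (log2 fold change -0.43 ± 0.15, SE; edgeR, adjusted p = 0.832), and the surface glycoprotein Clec14a (-0.38 ± 0.14, SE). The higher one was Foxf1, a factor that lung vessels need in development, with 26.0, 21.0 and 33.4 CPM in RAG1-/- and 35.6, 35.4 and 43.0 CPM in RAG1-/-Sgo1-/+ (0.49 ± 0.19, SE). Its groups did not overlap, as for 6.24% of all genes in this direction, and replicate 6 was the highest, opposite to most of its list.

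Larger vessels gave single genes in both directions, none of them called. Of 14 arterial genes, 2 were higher at an unadjusted p below 0.05, beside 3.15% of all genes, and 1 was lower, beside 2.52%. The netrin receptor Unc5b had 11.7, 17.0 and 16.0 CPM in RAG1-/- and 21.8, 23.9 and 32.4 CPM in RAG1-/-Sgo1-/+ (log2 fold change 0.80 ± 0.22, SE; edgeR, adjusted p = 0.832). Nebl, an actin-binding protein, had 46.0, 32.1 and 37.5 CPM and 67.3, 54.5 and 42.4 CPM, with overlapping groups (0.50 ± 0.19, SE). The calcification inhibitor Mgp had 785, 999 and 895 CPM and 717, 614 and 639 CPM (-0.44 ± 0.14, SE). The groups of Unc5b and Mgp did not overlap, as for 6.24% of all genes in the higher direction and 5.54% in the lower. Of 12 venous and large vessel genes, 1 was higher at an unadjusted p below 0.05 and 0 were lower. Of 10 tested lymphatic genes, 0 had an unadjusted p below 0.05, beside 5.66% of all genes. Of 13 genes of the angiopoietin and Notch pathways, 1 was higher and 1 was lower at an unadjusted p below 0.05. The shares over all genes were 3.15% and 2.52%. The higher one was the ligand Jag2 at 0.48 ± 0.20 and the lower one the ligand Angpt1 at -0.47 ± 0.20 (log2 fold change, SE). Each had an adjusted p of 0.832 by edgeR.

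The cells around the vessels were described by 2 lists. The 14 pericyte genes had a median log2 fold change of -0.25, which was -0.04 without replicate 2, -0.06 without replicate 6 and 0.04 without both. Of the 14, 0 had an unadjusted p below 0.05, and they summed to 719 to 891 CPM in RAG1-/- and 524 to 770 CPM in RAG1-/-Sgo1-/+. The 8 smooth muscle genes had a median of 0.40, all 8 above 0, and summed to 312 to 383 CPM and 387 to 442 CPM. Of these, Acta2 (0.74 ± 0.20), Cnn1 (0.96 ± 0.23) and Actg2 (1.43 ± 0.37), contractile proteins of muscle, had unadjusted p values below 0.05 and an adjusted p of 0.832 by edgeR (log2 fold change, SE), 3 of 8 genes beside 3.15% of all genes. Smooth muscle lies in vessel walls and airways alike, and which of these gave the reads was not tested.

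**Figure D4:**
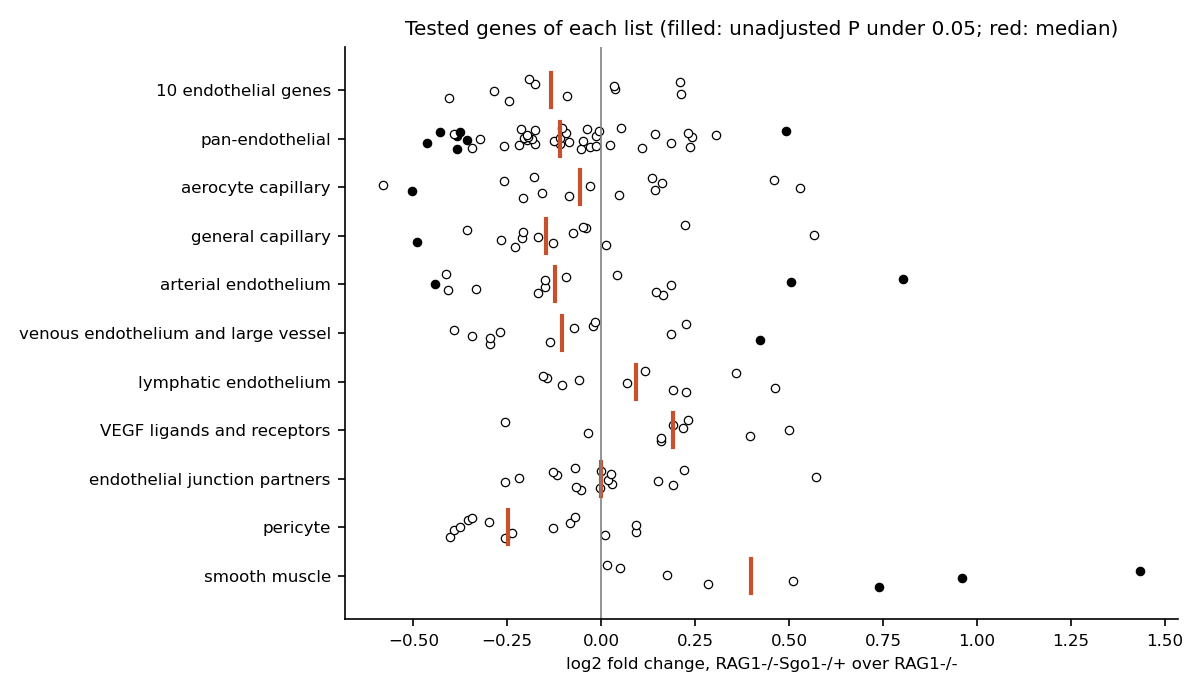
Log2 fold change of RAG1-/-Sgo1-/+ over RAG1-/- (x axis) for each tested gene of the 10 endothelial genes and of 10 lists around them; filled points have an unadjusted p below 0.05 in edgeR and red bars are medians. The 10 genes centre at -0.13, the pan-endothelial list at -0.11 and smooth muscle at 0.40.

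The tested genes whose level over the 6 libraries was most like the mean standardized log2 CPM of the 10 genes were Insyn2a, Ccbe1, Ppp4r2, Bmp7 and Gpm6b, with Pearson's r between 0.984 and 0.996. With 6 libraries, 370 tested genes reached an r above 0.9, and all points share the low value of replicate 6. Ccbe1 had 17.0, 20.6 and 22.1 CPM in RAG1-/- and 21.4, 18.5 and 12.5 CPM in RAG1-/-Sgo1-/+, whereas Insyn2a and Bmp7 stayed below 4 CPM.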

How the data were processed

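Total RNA was extracted with Trizol, made into Illumina TruSeq V2 libraries and sequenced on a MiSeq, 1 library per mouse. The authors deposited counts of reads per gene (mouse build 37.2 per the file headers) with BWA and edgeR named in the submitters' processing notes and no version given. The first of each library's repeated columns was used. Of nonzero counts, 65.8% were even, and whether both mates of a read pair were counted is not given in the sources used here, so that a number of reads may stand for fewer independent fragments. A file of the authors' own fold changes and p-values was not used.

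Counts were tested with edgeR 4.0.16 (quasi-likelihood, R 4.3.3), keeping genes with at least 10 reads over the 6 libraries and the total count as library size, with Benjamini-Hochberg adjustment. A call needed an adjusted p below 0.05 and a 2-fold difference. SE is the log2 fold change over the square root of F. The test was checked on simulated counts with 200 changed genes. It called 34% of them when the change was 2-fold, 97% at 4-fold and 99.5% at 8-fold. Most simulated 2-fold changes were thus missed. For tested genes in general, the absence of a call alone therefore does not exclude a change of that size. For the 10 genes described here, the edgeR intervals given in the Results all stayed inside a 2-fold difference either way. Alternatives were TMM and DESeq2 1.42.0 scaling, the DESeq2 Wald test, other filters and leaving out libraries. Lengths came from GENCODE vM21.

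The 10 genes and the lists were chosen with earlier results of these data known. Named genes were the 10, 2 checks for genotype and 3 for sex and B cells, the 2 highest and up to 2 of lowest p in each list, and the 5 most like the mean. Foxf1, Nebl, Acta2, Pf4, Awat1 and H2-K1 were added after their values were seen. In lists whose named genes are not given, the counts of genes with an unadjusted p below 0.05 were 0 of 11 for endothelial activation, 0 of 12 and 0 of 10 for alveolar types 1 and 2, 1 of 10 for airway, 0 of 8 for cardiac muscle, 6 of 8 for adipocytes, 3 of 7 for red blood cells, 5 of 8 for B and plasma cells and 0 of 8 for mesothelium, beside 5.66% of all genes. The adipocyte median of -1.73 was -0.40 without replicate 1, and the B and plasma cell median of -5.93 was 0.02 without replicate 2.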

Additional observations from a re-analysis of the deposited data

How the results depend on the processing

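No gene of the 10 was called under any of the 13 alternatives. The count of genes called among all tested genes was 0 under the main setting of this re-analysis, and 1 under the DESeq2 Wald test (Awat1, with reads only in replicate 6). With 1 library left out it ranged from 0 to 1 (without replicate 5, H2-K1), and at an unadjusted p with a 2-fold difference it was 233. The median of the 10 genes stayed below 0, from -0.20 to -0.02 with 1 library left out. Of 130 alternative fold changes for single genes, 121 kept their direction. With 1 library left out the fold changes ranged on the log2 scale from -0.27 to 0.02 for Apln (0.0062 without replicate 3, 0.018 without replicate 6), from -0.017 to 0.36 for Aplnr, from -0.12 to 0.19 for Plvap (-0.022 without replicate 3, -0.12 without replicate 4) and from -0.09 to 0.14 for Kdr (-0.020 without replicate 4, -0.086 without replicate 1). Apln was 0.015 without replicates 2 and 6 together and 0.0053 when scaled to the pan-endothelial list, both chosen after seeing the data. The causes were not tested. No paired analysis was made because the labels name no pairs of mice across the groups. The smallest library limits Apln and Aplnr most, at 86 and 98 reads, and nothing in the labels names a batch.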
